A study of Homo sapiens with 8 samples.

Results

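The loci of 5 genes known as estrogen targets in breast cancer cells, GREB1, TFF1, CA12, NRIP1 and CTSD, were followed through the lists of progesterone receptor (PR) sites and of chromatin regions in T47D-MTVL cells. Members were all listed regions that overlap a window made of the gene with 50 kb on each side, on hg19. The 5 windows span 0.792 Mb and hold 240 of the 224950 regions of the 8 lists, of which 134 are PR sites and 106 are chromatin regions. The line is T47D-MTVL, derived from human luminal breast cancer and holding an integrated reporter that responds to progestins. Before the experiment all cells, controls included, were kept for 48 h without phenol red in serum stripped with charcoal, then for 1 day with no serum, and the labels name no estrogen treatment. PR was precipitated from unstimulated cells (0 min) and from cells given 10 nM of R5020, a synthetic progestin, for 5, 30, 60 or 360 min, all fixed with 1% formaldehyde for 10 min. Unstimulated cells also gave lists for RNA polymerase II and for histone H3 with 1 methyl group (H3K4me1) or 3 (H3K4me3) on lysine 4. Each group was 1 library, so no difference between times could be set against replicate spread and no p-value is given. The lists carry no peak height and the read depth is unknown, so a region that is not listed is not thereby shown to be unbound. RNA was not measured, so the label of the cells could not be checked against marker expression.

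As background, the estrogen receptor and PR are hormone-activated transcription factors that bind different DNA elements, and PGR, the gene of PR, is itself an estrogen target. In luminal breast cancer cells liganded PR can bind near genes that the estrogen receptor controls. H3K4me1 typically marks enhancers and the flanks of promoters, whereas H3K4me3 and RNA polymerase II mark promoters in use. GREB1 is a cofactor of the estrogen receptor needed for estrogen-driven growth, and NRIP1 (RIP140) is a corepressor of nuclear receptors. CA12 is a membrane-bound carbonic anhydrase, CTSD encodes the lysosomal protease cathepsin D, and TFF1 (pS2) is a small secreted trefoil protein.

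RefSeq promoter sequences (GRCh38.p14) matched 3 of the 5 genes, CA12, CTSD and NRIP1. They are shown because regions with H3K4me3 and RNA polymerase II were listed at or just inside the starts of these genes, while their PR sites lay elsewhere or at the edge of those regions. Each line is the 250 bases before the outermost RefSeq start, 5′ to 3′ on the gene's strand (minus for each). Capitals mark GGTCA (either arm of the palindromic estrogen response element) and GGGCGG (the GC box bound by SP1 family factors), on both strands. CA12 is chr15:63381847-63382096, CTSD is chr11:1763928-1764177 and NRIP1 is chr21:15065937-15066186.
CA12: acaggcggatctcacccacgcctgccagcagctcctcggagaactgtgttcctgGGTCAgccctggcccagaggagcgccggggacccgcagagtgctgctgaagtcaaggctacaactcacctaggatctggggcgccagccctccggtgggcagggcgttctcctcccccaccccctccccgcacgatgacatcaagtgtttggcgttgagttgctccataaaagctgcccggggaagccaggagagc
CTSD: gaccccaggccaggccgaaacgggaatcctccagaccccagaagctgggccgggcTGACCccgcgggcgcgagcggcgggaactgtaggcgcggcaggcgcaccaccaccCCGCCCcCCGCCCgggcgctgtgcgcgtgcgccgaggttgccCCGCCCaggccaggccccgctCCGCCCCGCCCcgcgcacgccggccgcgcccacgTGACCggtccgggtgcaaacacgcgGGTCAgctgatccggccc
NRIP1: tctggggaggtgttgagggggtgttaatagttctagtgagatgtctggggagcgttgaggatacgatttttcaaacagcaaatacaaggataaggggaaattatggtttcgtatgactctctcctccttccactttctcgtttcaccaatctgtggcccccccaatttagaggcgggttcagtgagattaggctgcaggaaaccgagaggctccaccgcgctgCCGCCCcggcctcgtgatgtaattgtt
The full palindromic estrogen response element, the PR element core ACANNNTGT and the forkhead motif TGTTTAC, searched on both strands, had no match in these windows. Over the 35116 promoters of the table these motifs were found in 0.0399%, 4.61% and 2.98%. The CTSD promoter held 3 GGTCA matches and 5 GC box matches, of which the last 2 overlap by 1 base. CA12 held 1 GGTCA match and NRIP1 held 1 GC box match. Of all promoters 32.6% held GGTCA and 42.6% held GGGCGG. CTSD had 79.2% G and C, above 95.8% of promoters, against 64.8% for CA12 and 50.8% for NRIP1. The table's build differs from that of the lists, so these bases were not laid over the listed regions, and sequences of the PR sites themselves are not analysed here.

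Positions below are in kb from the gene start, negative upstream, taken from the window rule and so rounded to about 1 kb. Exons, introns and UTRs were not assigned, since no hg19 annotation was used. At 60 min PR was listed at 4 of the 5 loci, and the number of sites differed widely between them. Over the 5 windows the lists held 1 PR site at 0 min, 26 at 5 min, 40 at 30 min, 40 at 60 min and 27 at 360 min. GREB1 held 1, 12, 20, 22 and 17 of these, in the same order, and was the locus with the most sites at each time. CA12 held 0, 6, 9, 9 and 4. CTSD held 0, 5, 7, 6 and 5. NRIP1 held 0, 2, 3, 3 and 1, and TFF1 held 0, 1, 1, 0 and 0. The windows thus reached 50.5 PR sites per Mb at 60 min against 8.05 over all chromosomes. The counts of the loci were highest at 30 and 60 min, and the whole lists held 25872 and 24436 sites at those times and 22973 and 23841 at 5 and 360 min.

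**Figure D1:**
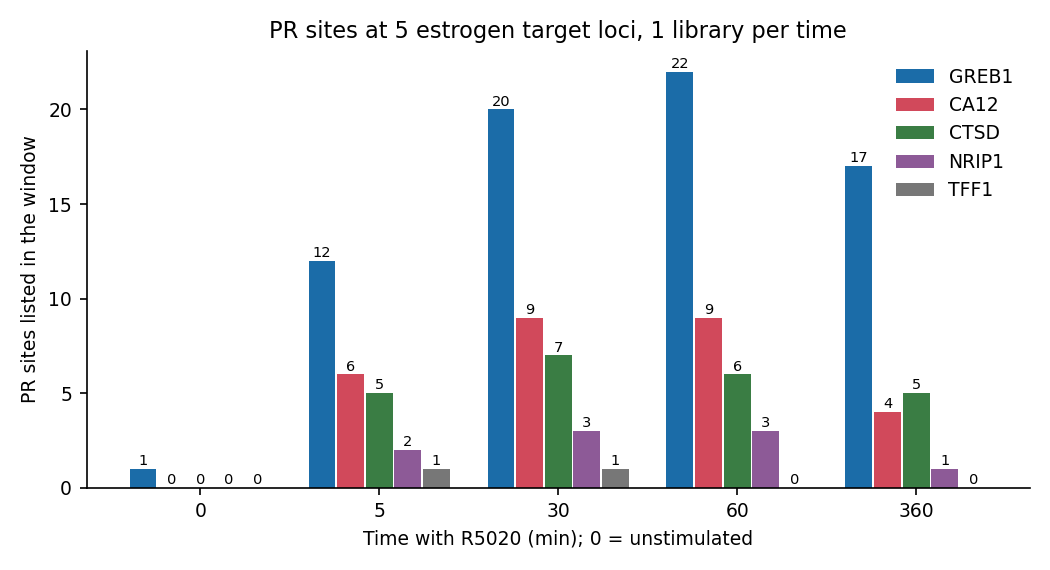
Number of PR sites listed in each window (vertical axis) at each time with R5020 (horizontal axis, min), 1 library per time with no error to show. GREB1 stands highest at each time with 1, 12, 20, 22 and 17 sites, and TFF1 has 1 site at 5 and 30 min only.

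The counts were read against bins of the same length laid end to end over all chromosomes, leaving out bins with no region in any list. At the length of the GREB1 window, 0.0987% of 12162 bins held 22 or more 60 min sites, and the median bin held 1. For CA12, 1.91% of bins held 9 or more, and for CTSD 3.41% held 6 or more. The 3 sites at NRIP1 were matched or passed by 27.7% of bins. At the length of the TFF1 window 47.0% of bins had no 60 min site, so the absence there is shared with many stretches of the genome. These shares describe the list and are no test, since the windows were laid around genes and the bins were not.

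GREB1 had the most PR sites of the 5 loci and the most that were listed at every hormone time. Merging overlapping sites of the 5 PR lists gave 25 sites there, of which 10 (40.0%, exact 95% interval 21.1 to 61.3%) were listed at all 4 times with hormone. Over all chromosomes 23.0% of 43784 merged sites were. These intervals cover counting error only. At 60 min 14 of the 22 sites lay within the gene interval, 7 upstream and 1 downstream. In a stretch chosen after the positions were seen, 8 lay in the first 15 kb of the gene. The gap between neighbouring 60 min sites had a median of 3.55 kb and was 0.59 kb at its smallest.

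The only PR site listed before hormone in any of the windows was at GREB1, on chromosome 2 from 11679507 to 11679842. After hormone the list of 5 min had it from 11679629 to 11679868 and that of 60 min from 11679599 to 11679929, centred at 5.76 kb. Its midpoints at the 4 hormone times lay within 15.5 bp of each other, a range that leaves out 0 min. The 0 min region began and ended before each of the regions listed with hormone. The site is 1 of 89 sites of the 60 min list (0.364%) that were also listed at 0 min. Its width at 60 min, 330 bp, was close to the 313 bp median of that list. It lay in an H3K4me1 region of 3937 bp (11679071 to 11683008) that held 1 PR site at 0 min, 3 at 5 min, 3 at 30 min, 4 at 60 min and 3 at 360 min. No other H3K4me1 region of the 5 windows held as many at 60 min.

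**Figure D2:**
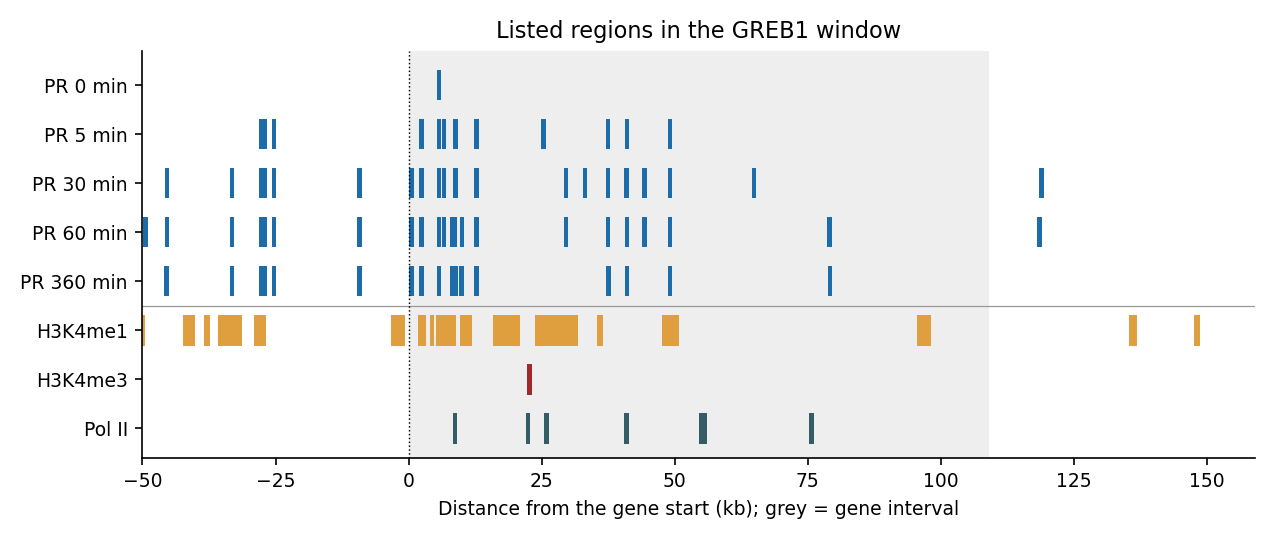
Regions of each list (rows) in the GREB1 window by distance from the gene start in kb (horizontal axis), 1 library per row, with regions narrower than 0.4% of the window drawn at that width. PR sites crowd the first 15 kb of the gene (8 at 60 min), where the only 0 min site also lies, and the single H3K4me3 region is at 22.6 kb.

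The remaining GREB1 sites differed in the times at which they were listed. The pair of neighbouring sites at -27.7 and -27.1 kb were listed at all 4 hormone times in an H3K4me1 region (11645012 to 11647187), with widths at 60 min of 351 and 334 bp. The further sites listed at all 4 hormone times were at -25.3, 2.43, 8.78, 12.8, 37.5, 41.0 and 49.1 kb. The site nearest the gene start, at 0.58 kb (11674441 to 11674718), was listed at 30, 60 and 360 min and not at 5 min. The sites at -45.4, -33.2 and -9.22 kb had the same times. The site at 6.66 kb was listed from 5 to 60 min and not at 360 min. Those at 8.19, 10.0 and 79.1 kb were listed at 60 and 360 min only. Those at 29.6, 44.4 and 118.6 kb were listed at 30 and 60 min only. Sites listed at a single hormone time were 1 for 5 min (25.4 kb), 2 for 30 min (33.2 and 64.9 kb) and 1 for 60 min (-49.4 kb), and none for 360 min. Of the 22 sites at 60 min, 17 were also listed at 360 min (77.3%, interval 54.6 to 92.2%), against 70.6% of all 60 min sites. These 17 were all the GREB1 sites of the 360 min list. The share of all 360 min sites found at 60 min is not given here, so this is not read as particular to GREB1.

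The GREB1 start, as rounded to about 1 kb, lay between listed H3K4me1 regions, 1 ending at -0.69 kb and the next beginning at 1.73 kb. No H3K4me3 or RNA polymerase II region overlapped it: the nearest H3K4me3 region, the only one in the window, was 401 bp wide at 22.6 kb (11696561 to 11696962), and the nearest RNA polymerase II region was at 8.58 kb (11682583 to 11682970). That RNA polymerase II region almost coincided with a PR site listed at all 4 hormone times (11682591 to 11682964 at 60 min), and another at 40.8 kb (11714831 to 11715057) overlapped a further such site. Of the 22 sites 11 (50%, 28.2 to 71.8%) were in H3K4me1 regions, against 48.2% of all 60 min sites, and 2 (9.09%, 1.12 to 29.2%) were in RNA polymerase II regions, against 8.92%. None was in an H3K4me3 region (0 of 22, which allows up to 15.4%), against 5.12% of all. The 10 others (45.5%, 24.4 to 67.8%) were in none of the 3 chromatin lists, against 50.4% of all. In these shares GREB1 was near the background of the list. Its 11 sites in 43.9 kb of H3K4me1 regions were 25.03 per 100 kb, against 5.09 over all chromosomes.

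With hormone, PR sites at NRIP1 were fewer than at GREB1, CA12 and CTSD, and they lay outside all 3 kinds of chromatin region. At 60 min there were 14.6 per Mb, against 8.05 over all chromosomes. All 3 sites at 60 min were in none of the 3 chromatin lists (100%, 29.2 to 100%). Of all 60 min sites 50.4% were, a share within this interval. The gene start was covered by H3K4me3 (1236 bp, 16437482 to 16438718 on chromosome 21, with further regions of 1149 and 409 bp just inside the gene) and by RNA polymerase II (16437955 to 16438337 and 16437007 to 16437701). No PR site of any list overlapped them. The 4 merged sites all lay in the gene interval, and the nearest to the start at 60 min was 10.7 kb from it. The site at 84.2 kb (16353621 to 16353909 at 60 min) was listed at all 4 hormone times, with widths of 255, 259, 288 and 236 bp. The site at 59.0 kb was listed at 5 and 60 min, that at 10.9 kb at 30 and 60 min, and that at 42.9 kb at 30 min alone. Only 2 H3K4me1 regions were listed in the window, both past the far end of the gene at 137.5 and 152.6 kb. H3K4me1 covered 1.76% of the window, against 7.64% of the chromosomes.

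CA12 had its 60 min PR sites inside H3K4me1 regions. All 9 sites at 60 min lay in H3K4me1 regions (100%, 66.4 to 100%), against 48.2% of all 60 min sites. These regions covered 37.5% of the window, and 9 of the 15 held a 60 min site, against 12.2% of all such regions. Width was not matched in this share, and the widest region with a site, 11052 bp, was wider than 97.1% of that list. Per length, the 60.1 kb of H3K4me1 held 14.98 sites per 100 kb, against 5.09 over all chromosomes. The site listed at each hormone time with the least change in place was at 3.16 kb, on chromosome 15 from 63671658 to 63672016 at 60 min, with widths of 361, 360, 358 and 354 bp and midpoints within 7 bp. It touches the inner edge of the promoter's H3K4me3 region (63672015 to 63674555, 2540 bp, wider than 99.5% of that list) by 1 base, and the authors' table does not mark it as an H3K4me3 site. The site at -5.86 kb was also listed at all 4 hormone times.

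The CA12 sites of 60 min that were still present in the 360 min list numbered 4 of 9 (44.4%, 13.7 to 78.8%), an interval that includes the 70.6% of the whole list. The 5 not listed were those at 37.6, 18.2, 7.33, -10.0 and -13.4 kb. The sites at 41.9 and -21.0 kb were listed from 30 min to 360 min. Of 13 merged sites 2 (15.4%, 1.92 to 45.4%) were listed at all 4 hormone times, against 23.0% of all, and 6 at a single one, as were 18202 of the 43784 over all chromosomes. A pair at 73.6 and 72.2 kb, past the gene's end and outside the chromatin regions, was listed at 30 min alone. RNA polymerase II was listed at 0.65 and 1.65 kb, with no PR site. With the gene start rounded to about 1 kb, the first of these cannot be told from the start itself.

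At CTSD all but 1 of the PR sites were listed at every hormone time. These were 5 of 6 merged sites (83.3%, 35.9 to 99.6%), against 23.0% of all merged sites. With 53.1 sites per Mb at 60 min the window was about as dense in PR as that of CA12 (56.2). None was in the gene interval, which is 13 kb long. On chromosome 11 the upstream ones were at -7.55 kb (1793395 to 1793702 at 60 min), -31.9 kb (1817631 to 1818228) and -32.8 kb (1818682 to 1818959). The others lay past the gene's far end, at 14.7 kb (1771151 to 1771411), 25.1 kb (1760552 to 1761172) and 59.2 kb (1726689 to 1726989). The site at 14.7 kb was the exception in time, listed at 30 and 60 min only, and it alone of the 6 lay in an H3K4me3 region (1769492 to 1771491). RefSeq names 1 protein-coding neighbour of CTSD within 50 kb in GRCh38, IFITM10, and its place relative to these sites on hg19 was not determined. At 30 min the -31.9 kb site was listed as 2 regions of 129 and 418 bp, and at 5 min as 1 of 708 bp.

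All 6 CTSD sites at 60 min were in H3K4me1 regions (100%, 54.1 to 100%), against 48.2% of all 60 min sites. In RNA polymerase II regions there were 3 of the 6 (50%, 11.8 to 88.2%), against 8.92%. RNA polymerase II covered 14.8% of this window in 19 regions, against 0.641% of the chromosomes. H3K4me1 covered 45.9% of it, with a region of 22674 bp over the whole gene (1763620 to 1786294) that was wider than 99.4% of the list. That region held 1 PR site at 60 min, the one at 14.7 kb, and none within the gene. H3K4me3 regions of 1440 and 586 bp and RNA polymerase II regions of 581 and 2455 bp lay just inside the gene start, none with a PR site.

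TFF1 was rich in listed H3K4me1 and had 1 PR site, at the early times. The single site, on chromosome 21 at -24.5 kb, spanned 43811321 to 43811632 in the 5 min list and 43811349 to 43811604 in the 30 min list. No other PR list had it. It lay in an H3K4me1 region of 6689 bp (43806985 to 43813674). The nearest site of the 60 min list was 103.7 kb from the gene start, outside the window. H3K4me1 covered 43.1% of the window in 12 regions, 1 of them (43781135 to 43788519, 7384 bp) over the whole gene. With 0 sites at 60 min in 45.2 kb of H3K4me1, up to 6.63 sites per 100 kb are allowed by a count of 0, a limit above the 5.09 of all chromosomes, so a lower PR density in this H3K4me1 was not detectable. The same limit lies below the 25.03 of GREB1, the 14.98 of CA12 and the 11.57 of CTSD. These values rest on 11, 9 and 6 sites and carry no interval, so a difference between the loci was not tested. No H3K4me3 region was listed in the window, and the nearest RNA polymerase II region to the start was at -14.3 kb. Within 50 kb of TFF1 RefSeq places TFF2, TFF3, TMPRSS3 and UBASH3A in GRCh38. It places E2F6, LPIN1 and NTSR2 near GREB1 and APH1B near CA12 by the same measure, so sites in the flanks of these windows were not assigned to the named gene.

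**Figure D3:**
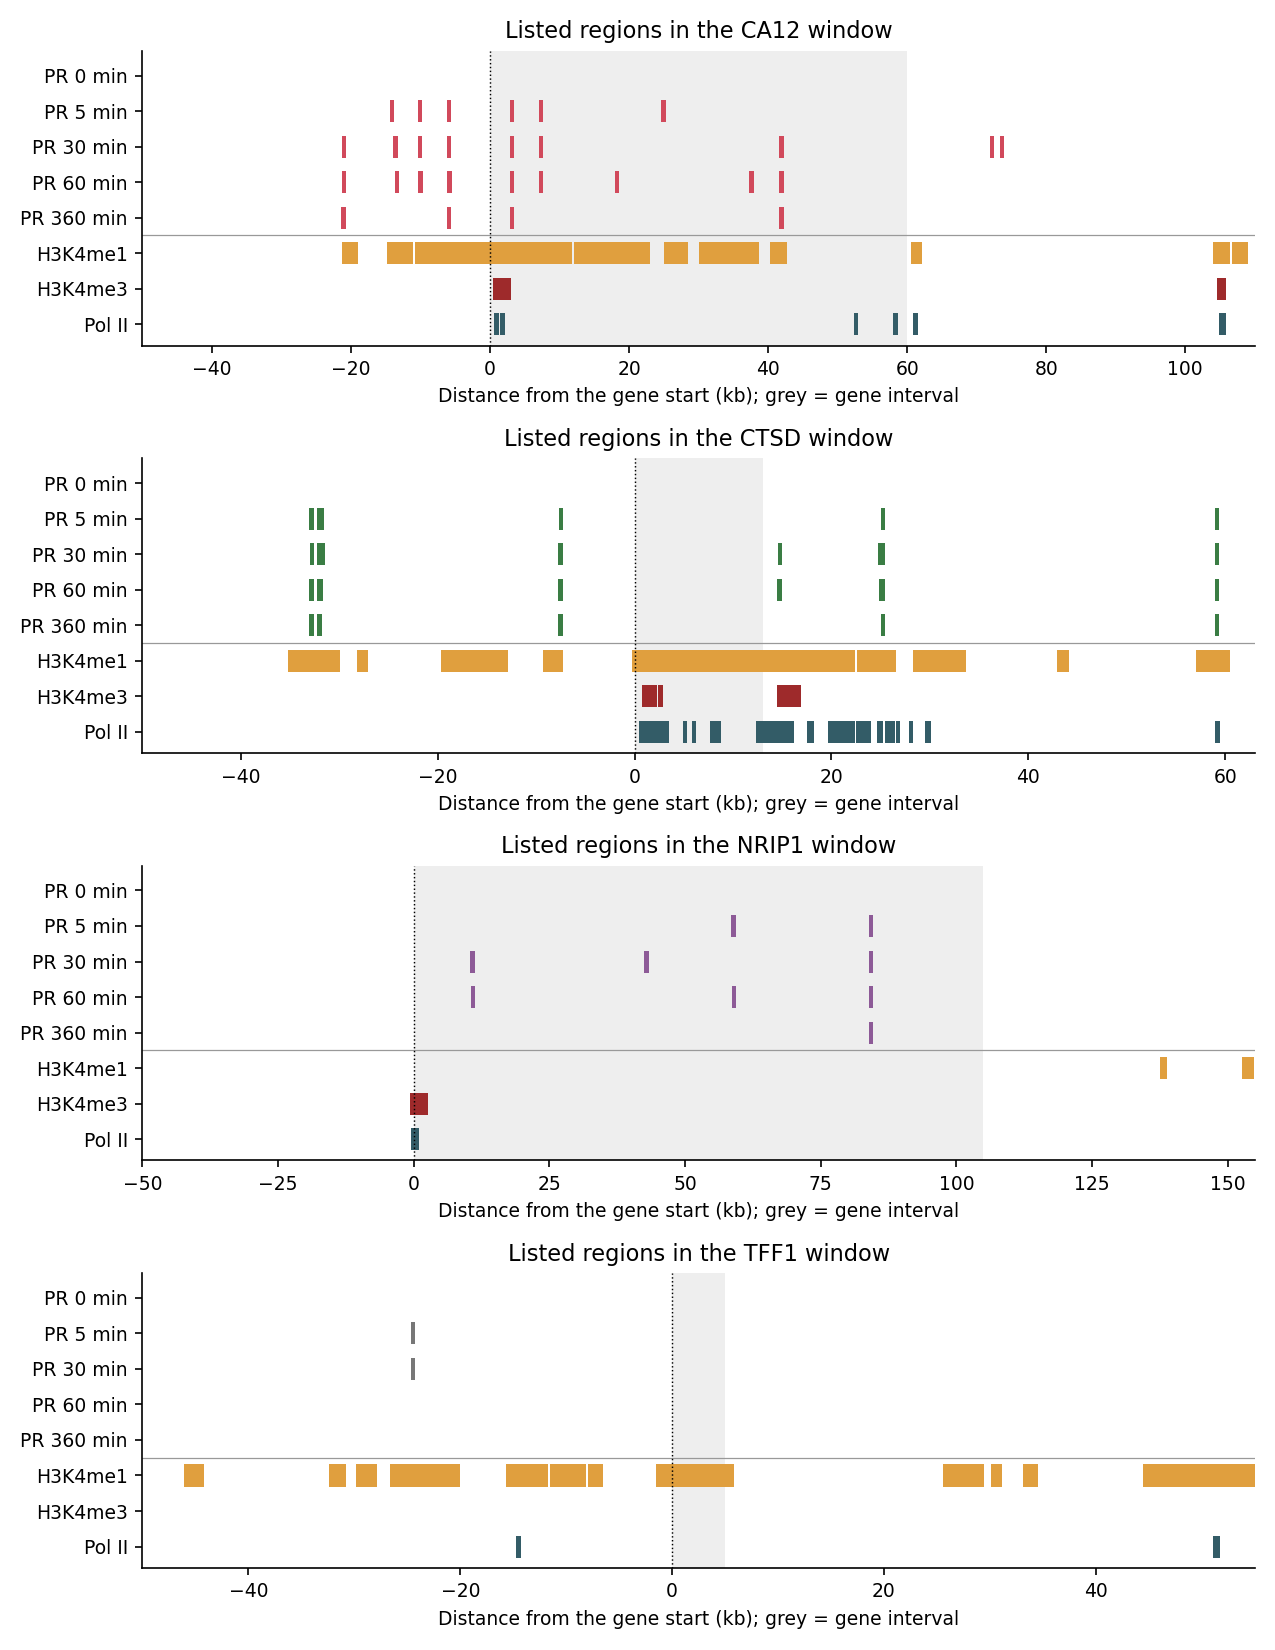
Regions of each list (rows) in the CA12, CTSD, NRIP1 and TFF1 windows by distance from the gene start in kb (horizontal axes), drawn as for GREB1. The CA12 and CTSD sites of the 60 min list sit within H3K4me1, the 3 NRIP1 sites at 60 min lie inside the gene away from every marked region, and TFF1 has H3K4me1 over the gene but a PR site at 5 and 30 min only.

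Over the 5 loci together, 26 of 40 sites at 60 min (65.0%, 48.3 to 79.4%) were in H3K4me1 regions, against 48.2% of the whole list. CA12 and CTSD gave 15 of these 26. The share was 83.3% without GREB1, 54.8% without CA12 and 58.8% without CTSD, so it depended on the loci included. The shares in H3K4me3 (2 of 40, 5.00%, 0.611 to 16.9%) and RNA polymerase II regions (5 of 40, 12.5%, 4.19 to 26.8%) could not be told from the 5.12% and 8.92% of all sites. In time, 22 of the 40 sites (55.0%, interval 38.5 to 70.7%) were shared with the 5 min list, 33 (82.5%, 67.2 to 92.7%) with the 30 min list and 27 (67.5%, 50.9 to 81.4%) with the 360 min list, and the whole list's 53.7%, 77.6% and 70.6% lie within these intervals. Of 49 merged sites 18 (36.7%, 23.4 to 51.7%) were listed at all 4 hormone times, against 23.0%.

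For each 60 min site the authors gave MNase reads, from nucleosomal DNA left after a nuclease has cut the DNA between nucleosomes, in unstimulated cells and after 60 min with R5020. At most of the 40 sites fewer reads were left after R5020, as over the whole list. In the authors' deposited table the ratio of unstimulated to R5020 reads was above 1 at 33 of 40 sites (82.5%, 67.2 to 92.7%), against 78.0% of all sites, and above 2 at 11 of 40 (27.5%, 14.6 to 43.9%), against 13.0%. The median ratio in the authors' deposited table was 1.55 (exact interval of the median over sites 1.43 to 1.80), against 1.29 over all sites. Sites of a locus share their surroundings, and a different scaling of either MNase library would shift every ratio alike, so these intervals do not stand for replicates.

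The medians of the loci differed in this ratio. CTSD had the highest median, 2.26 over 6 sites (1.44 to 3.64), followed by GREB1 with 1.58 over 22 sites (0.84 to 4.79), CA12 with 1.33 over 9 (0.87 to 1.84) and NRIP1 with 0.84 over 3 (0.77 to 1.47). The ranges of neighbouring loci in this order overlap. Other PR sites within 5 Mb of each window had medians of 1.85 (35 sites), 1.275 (60 sites), 1.345 (94 sites) and 0.97 (27 sites). CTSD was thus the highest and NRIP1 the lowest in their surroundings as well, and the part of the surroundings in the order of the loci was not tested.

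**Figure D4:**
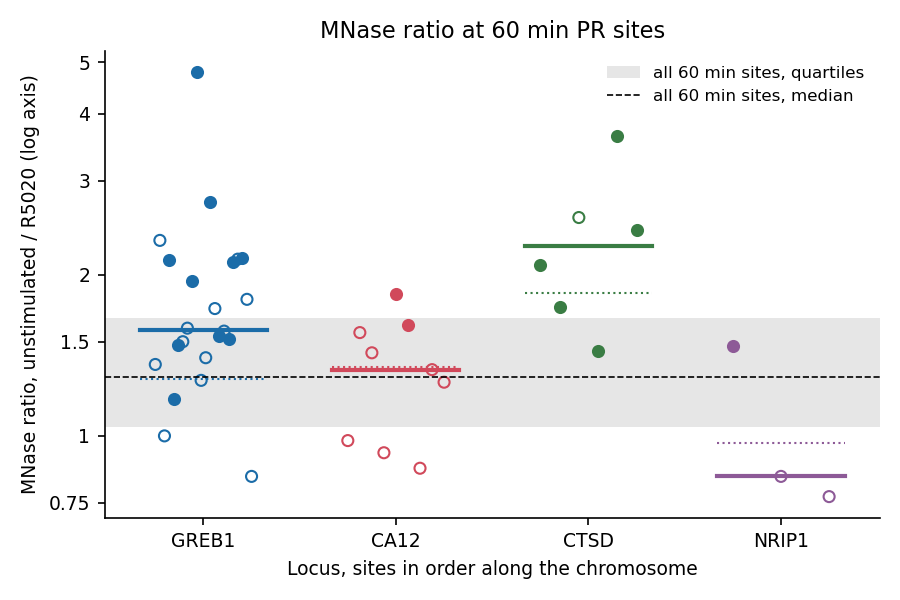
Ratio of unstimulated to R5020 MNase reads (log axis) at each 60 min PR site by locus, filled where the site was listed at all 4 hormone times and open elsewhere, with the all-site median dashed. Solid bars are locus medians (1.58, 1.33, 2.26 and 0.84), dotted bars the medians of other sites within 5 Mb, and the grey band the quartiles of all sites (1.04 to 1.66).

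The GREB1 site listed before hormone had the highest ratio of the 40. Its reads went from 67 to 14 in the authors' deposited table, a ratio of 4.79 that lies at percentile 99.6 of all sites. Per 100 bp this was 20.3 reads in unstimulated cells and 4.24 after R5020. The unstimulated value was at percentile 21.1 of all sites and the R5020 value at percentile 0.456. Low reads with hormone, not high reads before it, thus set its ratio apart. Next at GREB1 came the site in the RNA polymerase II region at 8.78 kb, where reads went from 52 to 19 (ratio 2.74, percentile 95.9). The lowest ratio at this locus was 0.84, at the downstream site at 118.6 kb (11792323 to 11792845), where reads went from 64 to 76.

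Of the 3 other sites in the same H3K4me1 region, the one at 8.78 kb is that with the ratio of 2.74, and the rest were nearer the all-site median. The sites at 6.66 and 8.19 kb had reads of 61 and 48 (ratio 1.27) and of 67 and 48 (ratio 1.40) in the authors' deposited table. At 0.58 kb, beside the gene start, reads went from 70 to 44 (ratio 1.59). All 22 GREB1 sites were below the all-site median of 23.1 R5020 reads per 100 bp, and 21 of 22 were below its 30.3 unstimulated reads per 100 bp. Other sites within 5 Mb were low as well, with medians of 21.0 and 15.1 against 21.8 and 14.4 at GREB1, so low read density was common to that stretch of chromosome 2. The 10 GREB1 sites listed at all 4 hormone times had a median ratio of 2.03 (1.17 to 4.79) and the other 12 had 1.535 (0.84 to 2.32), and the ranges overlap. Over all chromosomes these classes had 1.39 and 1.24.

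GREB1 sites that overlapped no marked chromatin region mostly had fewer reads after hormone too. Some lay close to one: the gap to the nearest H3K4me1 region ran from 240 bp at -49.4 kb to 16527 bp at 118.6 kb. The 10 sites in none of the 3 chromatin lists had a median ratio of 1.53 in the authors' deposited table, against 1.14 for all 12305 such sites, and the 10 in H3K4me1 alone had 1.65, against 1.42. The site at -45.4 kb, outside the chromatin regions, had reads of 44 and 19 (ratio 2.32, percentile 92.2).

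At CTSD the leading site was the broad upstream one at -31.9 kb, where reads went from 328 to 90 in the authors' deposited table (ratio 3.64, percentile 98.7). Its unstimulated density of 54.9 reads per 100 bp was at percentile 90.6, so unlike the GREB1 site it started high. Its neighbour at -32.8 kb, in the same H3K4me1 region, had 51 and 21 reads (ratio 2.43). The site in the H3K4me3 region at 14.7 kb had 87 and 34 (ratio 2.56), and the lowest was the -7.55 kb site with 128 and 89 (ratio 1.44). In all, 5 of the 6 CTSD sites lay above 1.66, the upper quartile of all sites. The 35 other sites within 5 Mb had a median of 1.85, also above it. All sites in H3K4me3 or RNA polymerase II regions, a class with 3 of the 6 CTSD sites, had a median of 1.94.

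At CA12 6 of 9 sites (66.7%, 29.9 to 92.5%) had fewer reads after R5020, an interval that holds the 78.0% of all sites, and 3 had more. The highest was the promoter-edge site at 3.16 kb, with 114 and 62 reads in the authors' deposited table (ratio 1.84, percentile 82.3), followed by the other site listed at all 4 hormone times, at -5.86 kb with 100 and 62 (ratio 1.61). These 2 sites were above the 7 others, which ranged from 0.87 to 1.56. The lowest was the site at -10.0 kb with 45 and 52 reads (ratio 0.87). The 8 sites in H3K4me1 alone had a median ratio of 1.295, against 1.42 for all such sites.

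At NRIP1, 2 of the 3 sites had more reads after R5020. The 1 of 3 with fewer (33.3%, 0.840 to 90.6%) could not be told from the 78.0% of all sites. Reads went from 110 to 142 at 10.9 kb (ratio 0.77, percentile 5.84) and from 121 to 144 at 59.0 kb (ratio 0.84) in the authors' deposited table. They went from 122 to 83 at the site listed at all 4 hormone times (ratio 1.47). Both sites with a ratio below 1 were wide, 529 and 509 bp, at percentiles 92.9 and 91.3 of width. TFF1 had no 60 min site and so no MNase value.

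**Figure D5:**
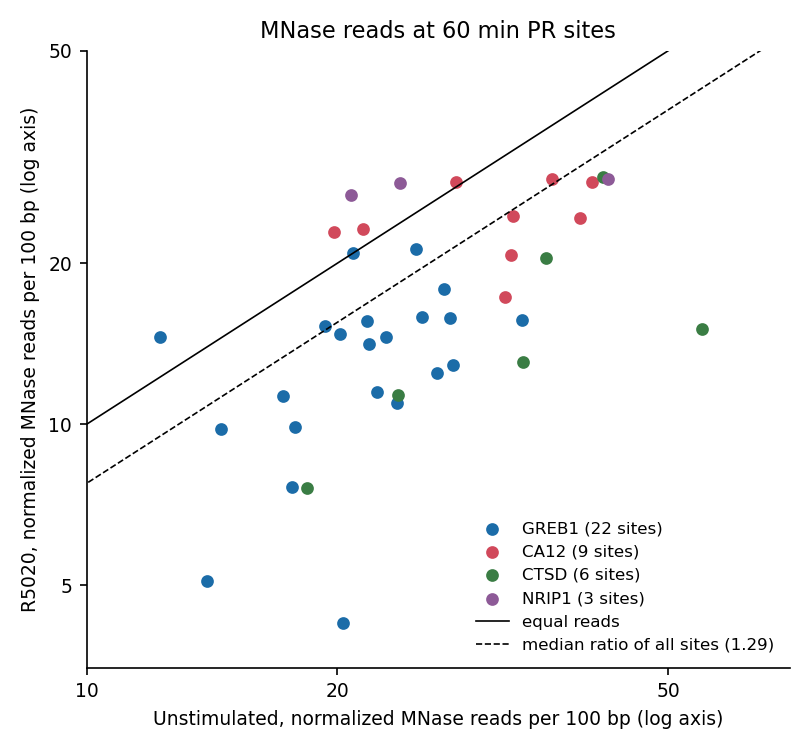
Normalized MNase reads per 100 bp in unstimulated (horizontal, log axis) and R5020-treated cells (vertical, log axis) at the 40 sites, with the line of equal reads and the line of the all-site median ratio, 1.29. The 22 GREB1 sites lie low on the vertical axis, all under 23.1, and the GREB1 site listed before hormone is lowest at 4.24, while 2 of the 3 NRIP1 sites and 3 of the 9 CA12 sites lie above equality.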

How the data were processed

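The series gives lists of PR sites from 5 libraries and of H3K4me1, H3K4me3 and RNA polymerase II regions from 3, as chromosome, start and end. The build is hg19 per the file headers. How reads were aligned and regions called, and at what depth, was not stated in these sources. A table deposited by the authors gives, per 60 min site, a normalized number of MNase reads (a score, whole numbers, normalization not stated) in 2 conditions, per the file headers, and the authors' ratio of unstimulated to R5020, which equals their quotient within 0.005. The MNase libraries are not among the 8 samples.

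Sites were assigned to the 5 windows and counted as shared from an overlap of 1 bp, and overlapping PR sites of all lists were merged. Coordinates are printed as listed. Strands of GREB1 and TFF1 are textbook knowledge, the others RefSeq's. Shares carry exact (Clopper-Pearson) 95% intervals, and the limit for 0 sites is 3 counts. Named sites were those listed at 0 min, those listed at all 4 hormone times (up to the 6 widest at 60 min) and those with the extreme MNase ratios. Further sites were named after their values were seen. Members and lists were chosen with earlier results of these data known, and the GGTCA and GGGCGG motifs after the sequences were seen. A list of other estrogen-responsive genes was not used, for want of hg19 positions. Overlap counting was first tested on simulated data with known answers. Scripts ran in Python 3.11.15 (pandas 2.3.3, NumPy 2.4.6), with SciPy 1.17.1 for intervals and Matplotlib 3.10.9 for plots. Alternatives changed the window, the overlap rule, the sites kept and the scaling.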

Additional observations from a re-analysis of the deposited data

How the results depend on the processing

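No paired analysis was possible because each group holds 1 library and no result comes from a test between samples. Of 91 alternative settings, 80 left a value within 1.5 times of a count or within the interval of a share or median. Some of these 80 could not move a value. Leaving out TFF1 kept every 60 min site, since TFF1 had none, and a floor of 20 unstimulated reads dropped none. The counts of sites moved with the window: in the gene intervals without flanks there were 14 PR sites at 5 min, 19 at 30 min, 22 at 60 min and 14 at 360 min. From the wider 50% of each list there were 16, 18, 22 and 17. Without GREB1 18 of the 40 sites at 60 min remained, and the share in H3K4me1 regions was 83.3%. Without CA12 that share was 54.8% and without CTSD 58.8%, both within its interval. Divided by the median of all 60 min sites the median MNase ratio was 1.20. Shares listed at 5 min, at 360 min and at all 4 hormone times, and shares in H3K4me3 and RNA polymerase II regions, stayed within their intervals under each setting tried. These intervals are wide, so this is a weak check. The share at all 4 hormone times ran from 25.8% (wider 50% of each list) to 44.4% (without CA12). With 1 locus left out, the share in RNA polymerase II regions ran from 5.88% (without CTSD) to 16.7% (without GREB1). Shares of all sites under these settings are not given here, so the stability of the contrast with all sites was not tested. A midpoint rule was not run for merged sites. Unknown depth and the absence of replicates limit each comparison.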

Other observations

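Beyond the windows, the flanks from 50 to 100 kb on either side of the 5 genes held fewer PR sites than the windows. They are also shorter, 0.5 Mb against 0.792 Mb. No site was listed there at 0 min. With hormone the counts were 6, 8, 6 and 6 at 5, 30, 60 and 360 min. Over all chromosomes the 60 min list held 8.05 sites per Mb, so these flanks are not thereby shown to be poor in PR. The CTSD flanks held 3 of the 6 sites at 60 min, and those of GREB1, NRIP1 and TFF1 held 1 each, while CA12 held none. H3K4me1 was listed in 26 regions of these flanks, of which 10 were at CTSD, 8 at TFF1 and 6 at CA12. RNA polymerase II was listed in 2.

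H3K4me1 regions without PR were common at the loci too. Of the 58 H3K4me1 regions in the windows, 23 (39.7%) overlapped a PR site of any list, against 18.2% of all H3K4me1 regions. The widths of the regions were not matched in these shares. The widest without PR at any time was at TFF1 (43728106 to 43742592, 14486 bp), at the edge of the window. At GREB1 a region of 5151 bp inside the gene, from 15.8 to 20.9 kb, held no PR site, and nor did the 3 narrow regions between -3.30 and -0.69 kb just before the gene start.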
